A study of Mus musculus with 7 samples.

Results

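Chromatin-associated RNA of 7 X-linked genes, Dynlt3, Fundc1, Timp1, Atp6ap1, Zc3h12b, Las1l and Zcchc16, was examined in female mouse embryonic stem cells (mESCs) in which Xist had been switched on from one X chromosome. The genes were chosen by their allelic ratios, because the chromosome that carries Xist gave an unusually large part of their RNA in 1 of 2 cell lines. They are 7 of 908 X-linked genes and 22556 genes counted. The allelic ratio is Xi/(Xi+Xa), where Xi is the chromosome expressing Xist and Xa is the other one. These ratios, and any comparison of them between the lines, are therefore given as a description with no test.

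The cells were undifferentiated hybrids of CAST/EiJ (Cast) and 129/Sv (Dom, for Mus musculus domesticus), so that fragments over strain polymorphisms can be assigned to a parental chromosome. In iXist-ChrX-Dom (n = 4 libraries) the Dom X chromosome carries a doxycycline-inducible promoter in place of that of Xist, and in iXist-ChrX-Cast (n = 3) the Cast X chromosome carries it. All libraries came from cells given 1 µg/mL doxycycline for 10 days, and no uninduced sample was analysed here, so no value is a change upon induction. Each line descends from a single engineered clone. The libraries of a line are described as replicate experiments, without a statement of whether cultures or induction days were separate, so spreads cover these experiments on 1 clone. In iXist-ChrX-Dom the X chromosome is homozygous Cast on the telomeric side of Xist, where Zcchc16 lies. For replicates 3 and 4 of iXist-ChrX-Dom one label field reads d1 where titles and treatment fields read 10 days, and for replicates 1 and 2 of iXist-ChrX-Cast the clone in the file name differs from the labelled one by 1 character. The labelled 10 days and line were used.

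Xist RNA coats the chromosome it is made from and recruits the factors that silence genes on it, and genes that stay partly active there are called escapees. An allele can also give more RNA than its partner on any chromosome, because the parental genomes differ in sequence. Across the lines each parental allele is seen both on Xi and on Xa. This parts silencing from the parental difference only where both alleles are silenced alike, and unequal silencing of the alleles enters the parental difference. A gene that resists silencing on either chromosome has a high ratio in both lines, and a gene with a strong Dom allele has a high ratio where Dom is Xi and a low ratio where Cast is Xi.

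Counted fragments ranged from 14877384 to 24309806 per library, and the median autosomal gene outside chromosomes 1, 5, 8, 12 and 14, which were left out for unbalanced alleles, drew 46.4% to 47.0% of its allelic fragments from Cast (7883 genes). The ratio table of iXist-ChrX-Dom held 246 genes with a median ratio of 0.148, and that of iXist-ChrX-Cast held 399 genes with a median of 0.122. A mean ratio above 0.5 was held by 2 genes in the first table (0.813%), Dynlt3 and Suv39h1, and by 5 in the second (1.25%), Xist, Zcchc16, Atp6ap1, Slc25a5 and Taf1. All 10 listed markers of embryonic stem cells were detected in every library, at a summed 1502 to 1934 CPM (counts scaled to a common library size), against 110.6 to 157.3 CPM for 16 fibroblast markers (15 or 16 of them detected), 274.2 to 478.7 CPM for 8 primitive endoderm markers and 28.6 to 56.3 CPM for 6 neural markers. The cells had been grown on fibroblast feeders that were removed by pre-plating. In such bulk samples, fewer cells of a type and less RNA per cell cannot be told apart.

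The genes fell into a group whose Dom allele gave more RNA and a group whose Cast allele did. Zcchc16 was placed in the latter by iXist-ChrX-Cast alone, where Cast was Xi, since iXist-ChrX-Dom has no Dom copy of it. Dynlt3 (X 9654269 to 9662983, minus strand, mm10), a light chain of cytoplasmic dynein, Fundc1 (X 17556568 to 17572297, minus strand), a receptor for mitophagy on the outer mitochondrial membrane, and Timp1 (X 20870165 to 20874737, plus strand), a secreted inhibitor of metalloproteinases, lie toward the centromere. Zc3h12b (X 95711677 to 95927970, plus strand), of the Regnase family of CCCH zinc-finger RNases, completes the Dom-high group. The Cast-high group holds Atp6ap1 (X 74297096 to 74304721, plus strand), an accessory subunit of the vacuolar proton pump (V-ATPase), Las1l (X 95935312 to 95956974, minus strand), which with NOL9 processes precursor rRNA, and Zcchc16 (X 144688906 to 145122410, plus strand), a gene of retrotransposon Gag origin also called Rtl4. The lower coordinates of the genes lie between 7.53 Mb (Las1l) and 93.8 Mb (Dynlt3) from that of Xist. Fragments were counted over the whole transcript, introns included and by strand, and no other counted gene overlaps these genes on their own strand. On the opposite strand, Syn1 overlaps Timp1 and 1700010D01Rik overlaps Zc3h12b.

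The sequence before the start of 4 of the genes is shown because they have the largest parental differences in each direction (Dynlt3 and Atp6ap1) or are close neighbours with opposite patterns (Zc3h12b and Las1l). The starts of Zc3h12b and Las1l lie at the ends that face away from each other, so the printed stretches are not close together. It is RefSeq reference sequence (GRCm38.p6, the mm10 assembly, strand of the gene), which comes from neither parent of these cells. Printed are the 250 bases before the start of Dynlt3 (chrX:9662984-9663233), 249 bases for Atp6ap1 (chrX:74296847-74297095), 249 for Zc3h12b (chrX:95711428-95711676) and, because the counted gene begins further upstream, 179 for Las1l (chrX:95956975-95957153). Capitals mark CpG dinucleotides, the bases that DNA methylation acts on.
Dynlt3: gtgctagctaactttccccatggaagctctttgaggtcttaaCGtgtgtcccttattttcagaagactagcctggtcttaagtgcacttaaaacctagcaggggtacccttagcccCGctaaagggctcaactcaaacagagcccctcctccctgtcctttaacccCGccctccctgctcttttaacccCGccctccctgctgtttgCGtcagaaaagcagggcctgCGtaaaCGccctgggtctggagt
Atp6ap1: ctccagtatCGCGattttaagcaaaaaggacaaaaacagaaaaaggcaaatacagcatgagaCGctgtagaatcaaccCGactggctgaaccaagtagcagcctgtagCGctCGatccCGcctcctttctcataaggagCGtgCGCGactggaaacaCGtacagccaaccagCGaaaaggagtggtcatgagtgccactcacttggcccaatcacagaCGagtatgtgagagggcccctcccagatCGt
Zc3h12b: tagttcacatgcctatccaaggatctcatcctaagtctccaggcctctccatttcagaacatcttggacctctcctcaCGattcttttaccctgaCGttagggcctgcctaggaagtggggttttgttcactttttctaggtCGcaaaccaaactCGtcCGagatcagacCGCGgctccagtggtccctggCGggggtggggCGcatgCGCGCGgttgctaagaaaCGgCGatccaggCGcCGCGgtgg
Las1l: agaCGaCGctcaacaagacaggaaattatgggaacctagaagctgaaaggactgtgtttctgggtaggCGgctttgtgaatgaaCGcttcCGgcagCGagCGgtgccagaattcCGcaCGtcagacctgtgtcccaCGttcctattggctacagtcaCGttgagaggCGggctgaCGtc
The RefSeq table matched 6 of the 7 genes. In the full 300-base window, from 250 bases before to 50 bases after the start, Zc3h12b held 20 CpGs, Las1l 19, Atp6ap1 17, Fundc1 12, Dynlt3 9 and Timp1 8, where the median of 245 windows of genes in both ratio tables was 16. A GC box (GGGCGG, either strand) was found in Dynlt3, Timp1, Atp6ap1 and Las1l and in 60.8% of those windows, or 35.7% of all promoters. CCAAT (either strand) was found in Timp1, Atp6ap1 and Las1l and in 44.5% of those windows, or 37.4% of all promoters. These counts are features of the reference letters and were not compared between the parental strains.

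Dynlt3 had the highest ratio of the iXist-ChrX-Dom table, and most of its RNA was from Dom in either line. In iXist-ChrX-Dom, Xi gave 255, 201, 204 and 215 fragments in replicates 1 to 4 and Xa gave 66, 72, 40 and 39, so that the ratio was 0.794, 0.736, 0.836 and 0.846 (0.803 ± 0.050, SD, n = 4). Every library thus had more Dynlt3 RNA from the chromosome carrying Xist than from Xa. In iXist-ChrX-Cast, Xi gave 11, 14 and 12 fragments and Xa gave 180, 303 and 308, a ratio of 0.0576, 0.0442 and 0.0375 (0.0464 ± 0.0102, n = 3). Dynlt3 is absent from the deposited table of that line, and these ratios were computed from the deposited counts. The share from Dom was 80.3 ± 5.00% where Dom was Xi and 95.4 ± 1.02% where it was Xa. A switch of Xi therefore moved the parental share by far less than the ratio.

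Fundc1 gave nearly equal RNA from both chromosomes where Dom was Xi. Its Xi counts in iXist-ChrX-Dom were 263, 161, 202 and 199 against Xa counts of 234, 254, 173 and 175, a ratio of 0.529, 0.388, 0.539 and 0.532 (0.497 ± 0.0728). Replicate 2 stood below the other libraries, which lay between 0.529 and 0.539. In iXist-ChrX-Cast the Xi counts were 39, 65 and 35 against 261, 320 and 305, a ratio of 0.130, 0.169 and 0.103 (0.134 ± 0.0331). This is close to the median of that table, so that Fundc1 was extreme in iXist-ChrX-Dom alone, where it ranked 3 of 246.

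Timp1 had the fewest allelic fragments of the 7 genes. In iXist-ChrX-Dom, Xi gave 12, 25, 13 and 16 fragments and Xa gave 17, 25, 20 and 19, a ratio of 0.414, 0.500, 0.394 and 0.457 (0.441 ± 0.0472). In iXist-ChrX-Cast, Xi gave 1, 2 and 1 fragments and Xa 26, 50 and 27, a ratio of 0.0370, 0.0385 and 0.0357 (0.0371 ± 0.00137). The small SD of that group understates the error, since the 95% Wilson interval of replicate 1 alone reached from 0.00657 to 0.183. Such intervals cover counting error only, because the fragments carried no molecular identifiers. Fibroblasts also express Timp1, and the fibroblast markers drew 22.2% to 31.5% of their allelic fragments from Cast in every library of both lines, below the autosomal median. The part of fibroblast RNA in the values of Timp1, or of the other genes, was not tested.

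Zc3h12b repeated this pattern on many more fragments. Xi gave 114, 95, 108 and 134 fragments in iXist-ChrX-Dom and Xa gave 157, 156, 109 and 130, a ratio of 0.421, 0.378, 0.498 and 0.508 (0.451 ± 0.0621). In iXist-ChrX-Cast, Xi gave 13, 6 and 7 fragments against 236, 296 and 281, a ratio of 0.0522, 0.0199 and 0.0243 (0.0321 ± 0.0175). Replicate 1 of iXist-ChrX-Cast was highest of its group.

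Atp6ap1 mirrored Dynlt3. In iXist-ChrX-Dom, Xi gave 10, 4, 9 and 7 fragments and Xa gave 184, 159, 208 and 185, a ratio of 0.0515, 0.0245, 0.0415 and 0.0365 (0.0385 ± 0.0112). In iXist-ChrX-Cast, Xi gave 90, 166 and 208 fragments and Xa gave 24, 58 and 49, a ratio of 0.789, 0.741 and 0.809 (0.780 ± 0.0351). The chromosome with Xist gave the larger part in every library of iXist-ChrX-Cast and the smaller part in every library of iXist-ChrX-Dom. Read as parental shares, Dom gave 3.85 ± 1.12% of Atp6ap1 fragments where it was Xi and 19.1% to 25.9% where it was Xa.

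Las1l was near equality where Cast was Xi. In iXist-ChrX-Cast, Xi gave 125, 206 and 157 fragments and Xa gave 117, 204 and 203, a ratio of 0.517, 0.502 and 0.436 (0.485 ± 0.0429). In iXist-ChrX-Dom, Xi gave 26, 18, 20 and 17 fragments against 279, 283, 289 and 277, a ratio of 0.0852, 0.0598, 0.0647 and 0.0578 (0.0669 ± 0.0126). All 4 libraries of iXist-ChrX-Dom were below the median of their table.

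**Figure D1:**
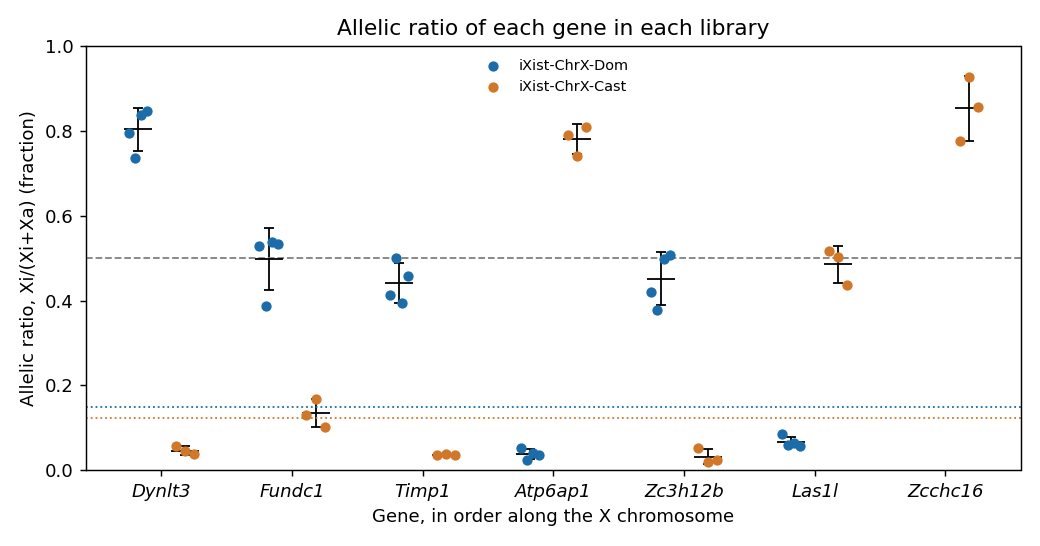
Allelic ratio, Xi/(Xi+Xa), of each gene (y axis, fraction) in each library (points), by line. Black bars are the mean and SD, the dashed line is 0.5 and dotted lines are the table medians of 0.148 (blue) and 0.122 (orange). Dynlt3 and Atp6ap1 lie on opposite sides of 0.5 in the lines, and Zcchc16 is shown for iXist-ChrX-Cast alone.

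Zcchc16 has a ratio in 1 line only. In iXist-ChrX-Cast, Xi (Cast) gave 62, 77 and 71 fragments and Xa (Dom) gave 18, 6 and 12, a ratio of 0.775, 0.928 and 0.855 (0.853 ± 0.0764). In iXist-ChrX-Dom, Dom gave 3, 2, 2 and 3 fragments of 366, 208, 215 and 248 allelic ones, or 0.980 ± 0.165%. This is the share assigned to Dom at a gene that has no Dom copy in that line, and it was below the Dom share of 14.7 ± 7.64% in iXist-ChrX-Cast. Whether the Dom and Cast alleles of Zcchc16 differ on equal chromosomes cannot be told apart from Xi and Xa here, since its Dom allele was measured on Xa only. The total level was 30.1, 16.5, 21.4 and 24.5 CPM in iXist-ChrX-Dom, which has 2 Cast copies, and 9.50, 8.72 and 7.76 CPM in iXist-ChrX-Cast, which has 1. The Cast-assigned level was 8.37 to 15.9 CPM in the former and 3.56 to 4.36 CPM in the latter.

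Levels of each allele were next compared with the same allele in the other line, which removes the difference between parental sequences. Such a comparison is also one between the lines, so the state of the chromosome (Xi or Xa) and the line cannot be told apart in it. The share kept on Xi below is meant in this sense. Levels are in CPM, scaled to the effective size of the whole library. The Dom allele of Dynlt3 stood at 12.7, 15.4 and 15.4 CPM on Xa and at 11.2, 8.17, 10.9 and 10.97 CPM on Xi. Its level on Xi was 70.7% of that on Xa (difference of log2 means -0.50 ± 0.14, SE), without overlap. The Cast allele of Dynlt3 stood at 2.89, 2.93, 2.13 and 1.99 CPM on Xa and at 0.774, 0.714 and 0.601 CPM on Xi, or 29.1% (-1.78 ± 0.18). So the Dom allele on Xi was still above the Cast allele on Xa, although both alleles were lower on Xi. Of all Dynlt3 fragments, 52.0% to 59.7% could be assigned to a parent in iXist-ChrX-Dom and 62.0% to 68.2% in iXist-ChrX-Cast. This lowers both allele levels in iXist-ChrX-Dom relative to the total, and its part in the shares kept was not tested. The usual gene kept less: the median over 236 genes, the 235 of both tables and Dynlt3, was 16.2% for the Dom allele and 17.4% for the Cast allele.

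The Cast allele of Atp6ap1 had overlapping levels on both chromosomes. It stood at 8.07, 6.46, 11.1 and 9.44 CPM on Xa and at 6.33, 8.46 and 10.4 CPM on Xi, so the level on Xi was 95.9% of that on Xa (log2 difference -0.06 ± 0.27). Such overlap was seen in few genes: 97.0% of the 236 genes had no overlap for the Cast allele and 97.9% for the Dom allele. The Dom allele of Atp6ap1 stood at 1.69, 2.96 and 2.45 CPM on Xa and at 0.439, 0.163, 0.480 and 0.357 CPM on Xi, or 15.3% (-2.71 ± 0.41). The alleles of this gene thus differed in how much was kept on Xi, with the Dom allele near the median gene.

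Las1l resembled Atp6ap1 with a smaller size. Its Cast allele on Xi was at 68.0% of its level on Xa (9.05 ± 1.34 against 13.3 ± 1.78 CPM, no overlap), and its Dom allele was at 10.0% (0.951 ± 0.186 against 9.60 ± 1.19 CPM). Within replicates 1 and 2 the Cast allele of Las1l differed by only -0.30 in log2, against -0.56 ± 0.15 over all libraries. The range of the Cast allele on Xi overlapped that of the Dom allele on Xa, both measured in iXist-ChrX-Cast, where the ratio lay near 0.5.

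The other Dom-high genes kept more of the Dom allele than of the Cast allele. Fundc1 kept 57.5% of its Dom allele on Xi (9.75 ± 2.21 against 16.6 ± 1.57 CPM) and 26.3% of its Cast allele (2.60 ± 0.789 against 9.69 ± 0.711 CPM). Zc3h12b kept 34.6% of the Dom allele (5.36 ± 1.25 against 15.3 ± 1.27 CPM) and 7.63% of the Cast allele (0.524 ± 0.339 against 6.42 ± 0.460 CPM). Timp1 kept 40.8% of the Dom allele (0.763 ± 0.206 against 1.91 ± 0.602 CPM). For the Cast allele of Timp1 only 4 fragments were counted on Xi in all 3 libraries, and the pooled level was 7.87% of that on Xa (95% exact interval 2.09 to 20.9). In each of these 3 genes the range of the Dom allele on Xi overlapped that of the Cast allele on Xa, both measured in iXist-ChrX-Dom, where the ratios lay near 0.5.

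**Figure D2:**
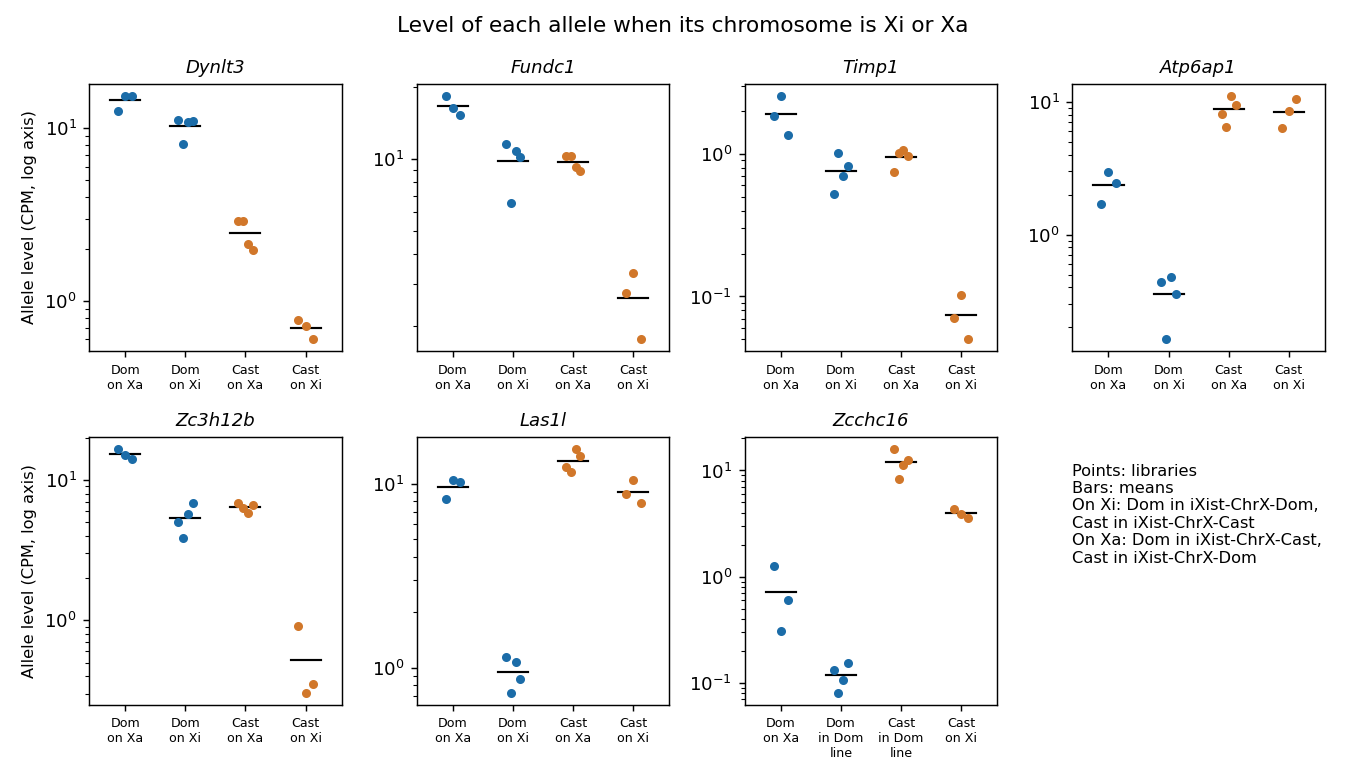
Level of the Dom allele (blue) and the Cast allele (orange) of each gene on Xa and on Xi, in CPM on a log axis. Points are libraries and bars are means. The points of the Cast allele of Atp6ap1 overlap between Xa and Xi, and the Dom allele of Dynlt3 on Xi lies above its Cast allele on Xa. For Zcchc16, the middle columns are the fragments of iXist-ChrX-Dom, which has Cast copies only.

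**Figure D3:**
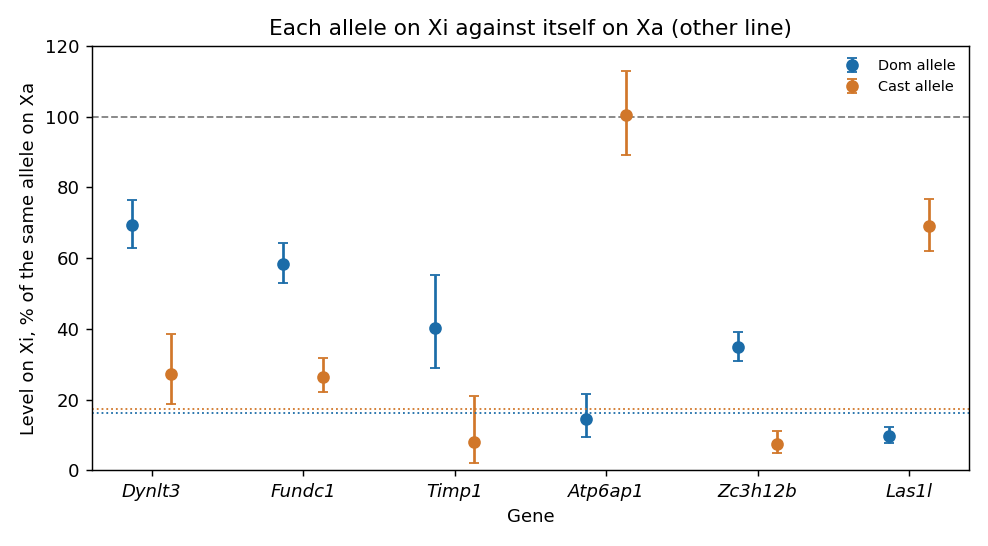
Level of each allele on Xi as a percentage of the same allele on Xa in the other line, from fragments summed over libraries, with 95% exact intervals that cover counting error only. Dotted lines are the medians over 236 genes (16.2% for Dom, 17.4% for Cast) and the dashed line is 100%. The higher point is Dom for Dynlt3, Fundc1, Timp1 and Zc3h12b, and Cast for Atp6ap1 and Las1l.

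Parental alleles were also compared in the same chromosome state. Each such comparison takes the Dom allele from one line and the Cast allele from the other, so parent and line cannot be told apart in it. On Xa, Dom minus Cast was 2.55 ± 0.17 (log2, SE) for Dynlt3, 1.25 ± 0.09 for Zc3h12b, 0.96 ± 0.28 for Timp1 and 0.78 ± 0.09 for Fundc1. It was -0.47 ± 0.14 for Las1l and -1.88 ± 0.29 for Atp6ap1. For all 6 genes the libraries did not overlap, which was also so for 30.9% of the 236 genes, whose quartiles were -0.12 and 0.41. Since the genes were chosen on this contrast, nothing more is read from that. On Xi, Dom minus Cast was 3.83 ± 0.15 for Dynlt3, 3.43 ± 0.51 for Zc3h12b, 2.93 ± 0.30 for Timp1, 1.91 ± 0.33 for Fundc1, -3.23 ± 0.19 for Las1l and -4.53 ± 0.39 for Atp6ap1. The lines did not overlap for these 6 genes, nor for 31.8% of the 236 genes, and the quartiles of all genes were -0.57 and 0.51. The parental difference was larger in size on Xi than on Xa in each of the 6 genes, and also in 164 of the 236 genes (69.5%), or in 93 of them (39.4%) when the same parent had to be higher on both, so this direction is common on the chromosome and the choice of the genes favours it. The median size over all genes was 0.32 on Xa and 0.54 on Xi. Las1l had the largest such step of the 6 genes, since its alleles differed by 1.38-fold on Xa and by 9.38-fold on Xi.

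The ratios were also split into a Dom-over-Cast component and an Xi-over-Xa component. With log2 odds defined as log2((Xi + 0.5)/(Xa + 0.5)) of the fragments of a library, the first is 0.5 times the difference of the mean log2 odds of the lines (iXist-ChrX-Dom minus iXist-ChrX-Cast) and the second is 0.5 times their sum. The Dom-over-Cast component was 3.19 ± 0.15 (SE) for Dynlt3, 2.34 ± 0.23 for Zc3h12b, 1.95 ± 0.07 for Timp1, 1.34 ± 0.16 for Fundc1, -1.85 ± 0.10 for Las1l and -3.21 ± 0.13 for Atp6ap1. These are folds of 9.12 toward Dom for Dynlt3 and 9.24 toward Cast for Atp6ap1. The median size over the 236 genes was 0.32, and Dynlt3 had the highest and Atp6ap1 the lowest value of all. This component averages the parental differences on Xa and on Xi, so unequal silencing of the alleles enters it. Taken apart, the folds on Xa and on Xi were 5.85 and 14.2 toward Dom for Dynlt3. They were 3.69 and 23.1 toward Cast for Atp6ap1.

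The Xi-over-Xa component was negative, that is toward Xa, in 235 of the 236 genes (99.6%), and so in all 6 of these. It was -1.14 for Dynlt3, -1.36 for Fundc1, -1.38 for Atp6ap1, -1.94 for Las1l, -2.28 for Timp1 and -2.62 for Zc3h12b, with the same errors as above, against a median of -2.67 over the 236 genes. Zc3h12b thus had the Xi-over-Xa component of a usual gene, and Dynlt3, Fundc1 and Atp6ap1 ranked 10, 20 and 21 from the top. The parental component was larger in size than the Xi-over-Xa component in 2 of the 6 genes, Dynlt3 and Atp6ap1, and in 5 of the 236 (2.12%), the others being Suv39h1, Slc25a5 and Taf1, named after their values were seen. Within replicates 3 and 4 this count was 4, Fundc1 and Zc3h12b being added by small margins.

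**Figure D4:**
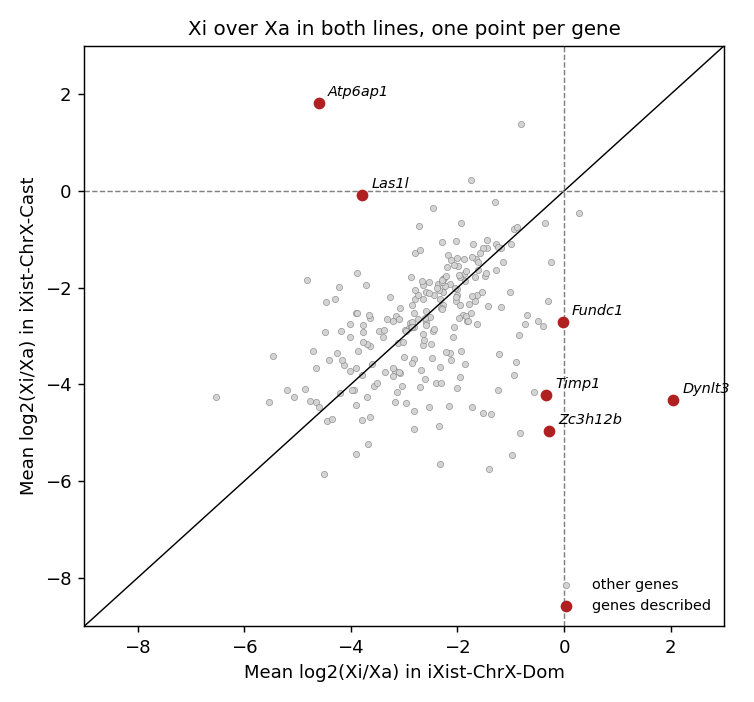
Mean log2(Xi/Xa), with 0.5 fragments added to each allele, in iXist-ChrX-Dom (x axis) and iXist-ChrX-Cast (y axis) of 236 genes. The solid diagonal marks equal values in the lines and dashed lines mark equal RNA from Xi and Xa. Dynlt3 is at 2.05 and -4.33 and Atp6ap1 at -4.59 and 1.82, each with more RNA from Xi than from Xa in 1 line only.

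The genes had no numerical limit for their choice, and the next genes in the same order show where they grade into the rest. Toward Dom these were Xpnpep2 (component 2.24), Msn (2.17) and Efhc2 (2.09), all above Timp1 and Fundc1. Toward Cast they were Klhl13 (-1.49), Stard8 (-1.14) and Ubl4 (-1.12). Among the genes outside the 7, the nearest in the plane of both lines, by Euclidean distance of mean log2 odds over 7 libraries, was Aff2 for Fundc1 (distance 0.38), Mamld1 for Timp1 (0.24) and Efhc2 for Zc3h12b (0.53). Las1l lay 1.24 from Rpgr, and the distances were longest for Dynlt3, 2.62 to Mamld1, and Atp6ap1, 3.05 to Ebp.

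Genes within 250 kb had less extreme ratios than Timp1 and Atp6ap1, though several near Atp6ap1 shared its direction. Around Timp1, the 12 genes of the tables had ratios of 0.0743 to 0.267 where Dom was Xi and 0.04996 to 0.269 where Cast was Xi. Timp1 was above all 12 in the first line and below all 12 in the second. Around Atp6ap1, the 14 genes in iXist-ChrX-Cast had ratios of 0.0642 to 0.276, all below Atp6ap1, and the 13 genes in iXist-ChrX-Dom ratios of 0.0473 to 0.383, all above it. The Dom-over-Cast component was below 0, the direction of Atp6ap1, in 9 of 13 of these neighbours, against 50% of the 236 genes. Ubl4 (-1.12 ± 0.59, SE), Fam50a (-1.09 ± 0.27) and Fam3a (-1.08 ± 0.40) ranked 5, 6 and 8 from the Cast end of all genes, and Ikbkg (-0.69 ± 0.13) and G6pdx (-0.65 ± 0.24) ranked 20 and 21. They lie 8.31 to 104.8 kb from Atp6ap1, on 1 side of it. Plxna3 (0.64 ± 0.28), on the same side, and Dnase1l1 (0.94 ± 0.38), Rpl10 (0.48 ± 0.06) and Flna (0.33 ± 0.13), on the other side, had components toward Dom. Around Timp1 the component had the sign of Timp1 in 5 of 12 neighbours, of which Syn1 (0.83 ± 0.33) had the highest. Dynlt3 had 1 neighbour, Sytl5, with 0.0631 and 0.122.

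Zc3h12b and Las1l lie 7.34 kb apart and went in opposite directions. On the far side of Las1l, 139.1 kb away, Msn, which links actin to the plasma membrane, had ratios of 0.275 ± 0.0303 where Dom was Xi and 0.0184 ± 0.00748 where Cast was Xi, the direction of Zc3h12b. Zc4h2, 53.2 kb from Zc3h12b on its other side, had 0.0667 and 0.0608. Efhc2, 237.2 kb from Fundc1, had 0.368 ± 0.134 and 0.0308 ± 0.0276, the direction of Fundc1. The neighbour of Zcchc16, Trpc5os, had 0.0325 in iXist-ChrX-Cast. The overlapping Syn1, counted on the other strand from Timp1, had ratios of 0.133 to 0.226 in the libraries of iXist-ChrX-Dom and 0.0316 to 0.129 in those of iXist-ChrX-Cast. The opposite-strand gene of Zc3h12b had at most 1 fragment per library.

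**Figure D5:**
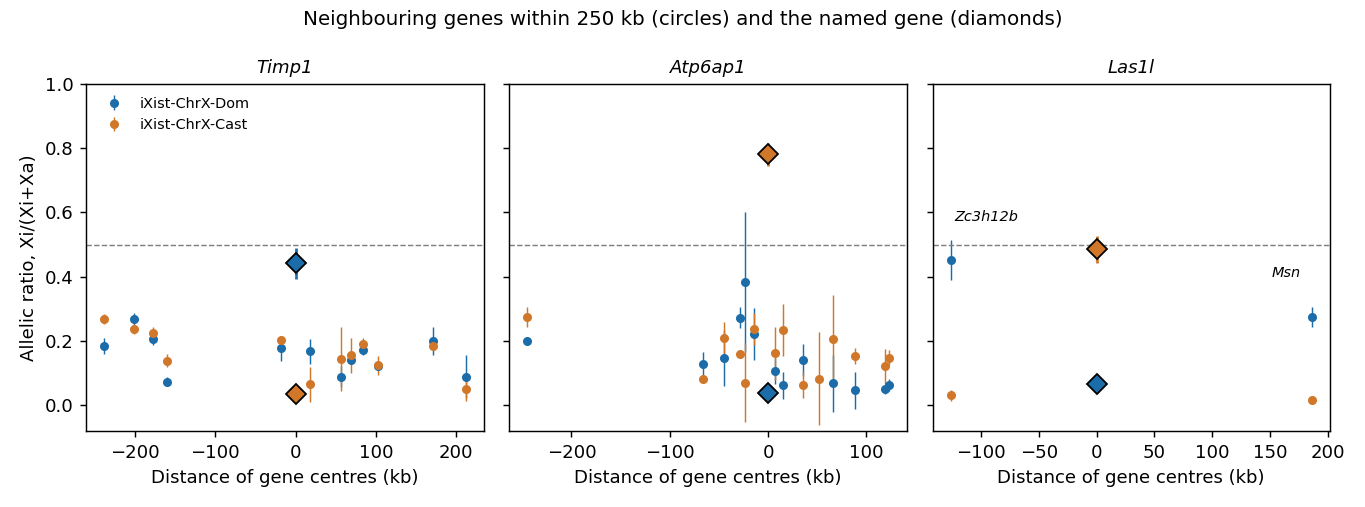
Mean allelic ratio (y axis, ± SD) of table genes within 250 kb of Timp1, Atp6ap1 and Las1l (circles) and of the named gene itself (diamonds), against the distance between gene centres in kb (x axis). The diamonds of Timp1 and Atp6ap1 lie outside the range of their neighbours in both lines, and Las1l lies between 2 genes of the opposite direction.

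Total RNA of the genes, both alleles and unassigned fragments together, differed much less between the lines than the ratios. Fitted log2 differences (iXist-ChrX-Dom minus iXist-ChrX-Cast, SE) were -0.03 ± 0.15 for Dynlt3, -0.05 ± 0.12 for Fundc1, -0.17 ± 0.22 for Atp6ap1, -0.20 ± 0.15 for Timp1, -0.32 ± 0.14 for Zc3h12b and -0.49 ± 0.12 for Las1l. The 7 libraries of Dynlt3 lay between 18.6 and 26.0 CPM. Las1l was at 30.5 to 39.4 CPM in iXist-ChrX-Dom against 46.3 to 53.5 CPM in iXist-ChrX-Cast. Zcchc16 stood apart at 1.42 ± 0.21, the gene with a different number of Dom and Cast copies in the lines. For Las1l the line in which both alleles gave like amounts was thus the line with more RNA in total.

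Related genes of the same complexes and families were tested for a difference in total counts between the lines. edgeR's quasi-likelihood test called 443 of 15186 genes (2.92%) at an adjusted p below 0.05, 182 higher (1.2%) and 261 lower (1.72%) in iXist-ChrX-Dom. None of 53 tested relatives was called: 0 of 16 V-ATPase genes, 0 of 5 partners of Las1l, 0 of 8 mitophagy genes, 0 of 11 dynein chains, 0 of 8 TIMPs and metalloproteinases, 0 of 2 Regnase genes and 0 of 3 Gag-like genes. Of them 12 had an unadjusted p below 0.05, and DESeq2 called 1, Dync1li2. With the replicate number as a block, edgeR called 1794 genes (11.8%) and 10 of the 53 relatives, 5 higher and 5 lower in iXist-ChrX-Dom. This block rests on the replicate numbers, although correlations between the lines followed the sample set rather than the number. Replicate 4 of iXist-ChrX-Dom has no partner of its number, so it does not enter the line difference of this fit. Without the block edgeR called none of the genes named next, so these calls depend on that choice. Under this block Zc3h12a, an RNase of the Regnase family, fell by 0.92 in log2 (edgeR adjusted p = 0.00366, without the block 0.192). Fkbp8, a mitochondrial receptor, rose by 0.48 (adjusted p = 0.00572, without the block 0.192). Of V-ATPase subunits, Atp6v0a1 (0.44), Atp6v0d1 (0.37) and Atp6v1b2 (0.32) rose and Atp6v0a2 fell by 0.43. The other called genes were Dync1li2 (0.33), Dync1i1 (-0.40), Senp3 (-0.32) and Peg10 (-0.33). Of these, Atp6v0d1, Atp6v1b2, Fkbp8 and Dync1li2, 4 of the 5 that rose, lie on chromosome 8, where the median log2 difference of 806 tested genes was 0.35 and the median Cast share was 63.6 ± 0.337% where Dom was Xi and 46.8 ± 2.76% where Cast was Xi. Atp6v0a2 lies on chromosome 5, where the median log2 difference of 964 genes was -0.40 and the Cast share was 45.9 ± 0.200% against 63.6 ± 0.664%. The part of these chromosome-wide differences in the calls was not tested. The median log2 difference over the 53 relatives without the block was -0.02, and over all genes 0.00.

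Of 9 X-linked relatives, 2 had enough allelic fragments for a ratio, and neither showed the same extremes. Atp6ap2, the other accessory protein of the V-ATPase, had ratios of 0.293 ± 0.0200 where Dom was Xi and 0.244 ± 0.0160 where Cast was Xi, against 0.0385 and 0.780 for Atp6ap1. Fundc2, the homologue of Fundc1, had 0.0864 ± 0.0169 and 0.0667 ± 0.0128. The other 7, all Gag-like genes, had 0 to 10 allelic fragments per library, so whether a relative of Zcchc16 shares its ratio could not be judged. Of 29 relatives on autosomes other than chromosomes 1, 5, 8, 12 and 14, the median Cast share was 47.3% where Dom was Xi and 46.5% where Cast was Xi, and 1, Dynlt1f (named after its values were seen), differed by more than 10 percentage points between the lines.

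The choice of the genes did not use the sample sets, replicates 1 and 2 against replicates 3 and 4, which follow the naming schemes of the files, so a test was possible there. limma on the log2 odds, with the line in the fit, called 0 of 236 genes (0%) at an adjusted p below 0.05, and 7 had an unadjusted p below 0.05. The differences (replicates 3 and 4 minus replicates 1 and 2) were 0.23 ± 0.31 (SE) for Dynlt3, 0.21 for Atp6ap1, 0.20 for Zc3h12b, 0.03 for Fundc1, -0.09 for Timp1 and -0.31 ± 0.21 for Las1l, with adjusted p of 0.987 to 0.995. The ratios of the genes in replicates 3 and 4 were therefore not detectably apart from those in replicates 1 and 2. Replicates 3 and 4 here are those of iXist-ChrX-Dom, which have d1 in a label field, and replicate 3 of iXist-ChrX-Cast, which does not. In a fit of iXist-ChrX-Dom alone, which compares its d1 libraries with its other libraries, limma also called 0 genes.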

How the data were processed

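Female hybrid mESCs of 2 lines were profiled by ChrRNA-seq in 7 libraries. The authors removed rRNA reads with bowtie2 2.3.2, aligned with STAR 2.4.2a to a polymorphism-masked mm10 genome, assigned fragments to parents with SNPsplit and counted them by strand over whole transcripts with featureCounts 1.5.2, per the file headers. The deposited count files hold raw fragment counts per gene in total, from Cast and from Dom. The deposited ratio tables hold the fraction of allelic fragments from Xi, which the authors filtered for allelic depth and for balance without induction. Dynlt3 (not listed for iXist-ChrX-Cast) and Zcchc16 (not listed for iXist-ChrX-Dom) are each in 1 table only. Zcchc16 has no Dom copy in iXist-ChrX-Dom, and the paper names the recombination in that line among the reasons for genes left unevaluated. Which filter left out Dynlt3 was not tested. Every ratio equalled the value computed from the counts to within 1e-06.

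Samples were grouped by line. For total counts the quasi-likelihood F test of edgeR 4.0.16 was run (R 4.3.3, TMM scaling, filterByExpr, two-sided), and for log2 odds limma 3.58.1 (two-sided), each with Benjamini-Hochberg adjustment over all genes fitted and a threshold of 0.05. DESeq2 1.42.0 was an alternative. Allele levels were Cast or Dom counts as CPM of the TMM-scaled library, with 0.5 fragments added before logs. Intervals are at 95% (Wilson for ratios, exact for pooled folds). The 7 genes, the lists of relatives and the alternatives were chosen with earlier results of these data known. Named beyond the 7 genes were relatives called by a test, X-linked relatives, neighbours within 250 kb, the next 3 genes at each end of the Dom-over-Cast component, and the nearest gene in the plane of the lines.

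Replicate numbers shared by the lines were checked as pairs. Deviations of autosomal log CPM from the line means correlated at 0.33, 0.28 and 0.47 for the same numbers, so the block was printed for total counts. Different numbers of the same sample set correlated as well (0.38 and 0.32 between replicates 1 and 2, and 0.50, the highest of all, between replicate 4 of iXist-ChrX-Dom and the third replicate of iXist-ChrX-Cast), and numbers of different sets correlated negatively (-0.50 to -0.27), so the correlations follow the sample set. For log2 odds the correlations were -0.10, -0.16 and -0.06, and the numbers were not taken as pairs. On simulated data, edgeR found 98.5% of 200 genes changed by 1.5 in log2 among 15049 (3.43% of calls false), and limma 70.0% of 40 among 236 for the sample sets (0% false). Figures and values were made in Python 3.11.15 with matplotlib 3.10.9, scipy 1.17.1, pandas 2.3.3 and numpy 2.4.6.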

Additional observations from a re-analysis of the deposited data

Results flagged for a closer look

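Among 27 groups of 4 libraries screened for a library far from the others (chance marks about 1 in 20 groups), 2 stood out, both for iXist-ChrX-Dom replicate 2. The Fundc1 ratio there was 0.388, when the other libraries lay at 0.529 to 0.539. The level of the Dom allele of Dynlt3 there was 8.17 CPM, when the others lay at 10.9 to 11.2 CPM.

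In 2 genes the chromosomes were ordered oppositely in every library of the lines. The mean ratio of Dynlt3 was 0.803 where Dom was Xi and 0.0464 where Cast was Xi, and that of Atp6ap1 was 0.0385 and 0.780. The difference was not tested, because the genes were chosen for it.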

How the results depend on the processing

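The count of genes by larger component depended on the libraries: 2 of 6 genes had the larger Dom-over-Cast component, 4 within replicates 3 and 4, 3 within replicates 1 and 2, and 2 to 3 with each library left out (3 without iXist-ChrX-Dom replicate 2 or without iXist-ChrX-Cast replicate 3). No component changed sign, and the ratios near 0.5 stayed near it (0.459 to 0.533 for Fundc1 and 0.400 to 0.475 for Zc3h12b where Dom was Xi, 0.469 to 0.518 for Las1l where Cast was Xi). The replicate block left that count at 2, with components of 3.12 for Dynlt3 and -3.20 for Atp6ap1. The log2 difference of the Cast allele of Atp6ap1 between Xi and Xa, -0.06, ran from -0.23 to 0.13 over its alternatives. With 5 fragments added to each allele, the Dom-over-Cast component of Timp1 went from 1.95 to 1.16 and the log2 difference of its Cast allele between Xi and Xa from -3.26 to -1.72, so the low depth of that gene limits its size.

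The count of all genes called between the lines was 443 and depended on the fit: 1098 with DESeq2, 1794 with the replicate block, 2398 with the sample set as a covariate, and 18 to 1206 with each library left out. The lowest came without iXist-ChrX-Cast replicate 2 and the highest without iXist-ChrX-Cast replicate 3, and every other omission gave 56 to 167 calls. Among relatives 0 were called in the full fit, 10 with the block and 11 with the sample set. The cause was not tested. limma called 0 genes for the sample sets under each of its alternatives.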
